A study of Mus musculus with 10 samples.

Results

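The tumour necrosis factor (TNF) superfamily was examined in inflamed mouse ear skin as 39 genes, 16 ligands and 23 receptors, of the 19703 protein-coding genes measured. The members were every gene whose symbol begins with Tnfsf or Tnfrsf followed by a digit, together with Tnf, Lta, Ltb, Fas, Fasl, Cd27, Cd40 and Cd40lg. RNA-seq had been carried out on 10 samples of left ear skin taken on day 13 from mice treated with MC903 (calcipotriol), a vitamin D analogue that causes a skin inflammation resembling atopic dermatitis. MC903 was painted on for 7 days and again on day 8, in every mouse of both groups. The vehicle group (5 samples) was then gavaged with vehicle, and the antagonist group (5 samples) with GSK1562590, which blocks the urotensin II receptor, at 5 mg/kg. The sources used here do not give strain, sex or age, and ears without MC903 were not analysed here. The labels number the samples without saying whether they are different mice, and p-values then cover only sample-to-sample spread, which may be technical.

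Ligands of this superfamily are mostly membrane proteins that act as trimers on a neighbouring cell or are shed by proteases. Their receptors carry cysteine-rich repeats outside the cell and either a death domain, which can start caspase cascades, or short motifs that bind TRAF adaptors and turn on NF-kappa B and JNK. A few receptors lack a working signalling tail and act as decoys. In skin the superfamily is known for keratinocyte inflammation (TNF), for T cell costimulation (OX40, CD30, 4-1BB, GITR and CD27), and for hair follicle development through the ectodysplasin branch.

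All libraries had similar depth, 20183024 to 20606007 expected counts. Keratinocyte markers were abundant in every library, with a summed level of 20851 to 34887 CPM (counts scaled to a common library size) in vehicle and 22230 to 31059 CPM in antagonist ears, as the labelled tissue calls for. In whole skin, fewer cells of a type and less RNA per cell cannot be told apart.

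Stretches of 250 bases before the transcription start are shown for 4 members that were lower in antagonist ears, because the family's receptors signal through NF-kappa B and these windows hold the motifs searched for. Capitals mark matches to the NF-kappa B consensus (10 bases with ambiguous positions), to TGANTCA (an AP-1 motif) or to TATAAA, searched on both strands, where overlapping matches run together. The sequences are RefSeq's for GRCm38.p6, written 5′ to 3′ in the direction of the gene.
Ltb, chr17:35194257-35194506, plus strand: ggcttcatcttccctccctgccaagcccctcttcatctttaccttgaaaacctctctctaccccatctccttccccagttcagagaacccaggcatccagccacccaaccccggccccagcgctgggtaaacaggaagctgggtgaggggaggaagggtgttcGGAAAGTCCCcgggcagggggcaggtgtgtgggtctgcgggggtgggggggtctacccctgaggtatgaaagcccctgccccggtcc
Tnfrsf9, chr4:150927749-150927998, plus strand, the downstream start of those listed: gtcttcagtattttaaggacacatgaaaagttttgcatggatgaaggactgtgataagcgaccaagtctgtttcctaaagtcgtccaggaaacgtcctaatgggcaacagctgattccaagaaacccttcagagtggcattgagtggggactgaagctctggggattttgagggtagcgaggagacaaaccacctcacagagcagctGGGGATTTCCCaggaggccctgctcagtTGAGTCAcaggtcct
Tnfrsf8, chr4:145315165-145315414, minus strand: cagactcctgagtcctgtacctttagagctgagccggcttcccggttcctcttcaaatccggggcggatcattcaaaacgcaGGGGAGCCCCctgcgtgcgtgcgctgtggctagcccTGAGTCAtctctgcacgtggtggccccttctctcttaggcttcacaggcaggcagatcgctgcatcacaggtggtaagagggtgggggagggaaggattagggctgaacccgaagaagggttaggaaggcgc
Tnf, chr17:35202008-35202257, minus strand: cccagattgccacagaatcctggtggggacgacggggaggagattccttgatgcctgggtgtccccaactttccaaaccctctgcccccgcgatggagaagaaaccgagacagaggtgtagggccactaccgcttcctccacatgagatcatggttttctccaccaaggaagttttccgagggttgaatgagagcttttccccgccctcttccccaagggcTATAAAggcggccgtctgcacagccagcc
The NF-kappa B consensus lay from base -87 to -78 before the start of Ltb, as overlapping matches beginning at -43 before that of Tnfrsf9, and from -168 to -159 before that of Tnfrsf8. Tnfrsf8 and Tnfrsf9 also held TGANTCA, and Tnf held TATAAA from -29 to -24. The window of the upstream Tnfrsf9 start (chr4:150919905-150920154) held none of these motifs. Tnfsf14, which was lower too, held TGANTCA from -160 to -154, and its window is not shown. Sequence windows were matched for 30 member genes. Of these, 3 held the NF-kappa B consensus, 6 held TGANTCA and 6 held TATAAA in any of their windows, 34 in all. Of all 32851 windows, 3.9%, 6.75% and 12.4% held these motifs in the same order. The first are counts of genes and the second shares of windows, so they are not like for like. Of the 30 matched genes 13 passed the test between groups. They included the 3 genes with the NF-kappa B consensus, 3 of the 6 with TGANTCA and 1 of the 6 with TATAAA. A link between motif and call was not tested. A match is a description of these letters and not a measured binding site.

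Levels compared between genes are given per transcript length, as TPM (length-normalised transcript abundance). In vehicle ears the 39 members ranged from 0.188 ± 0.0785 TPM for Tnfsf4, the OX40 ligand, to 176 ± 7.35 TPM for Tnfrsf1a, the death-domain TNF receptor TNFR1 (SD, n = 5). Second came Tnfrsf12a, the TWEAK receptor FN14, at 95.6 ± 13.8 TPM, and then its ligand Tnfsf12 at 42.5 ± 5.47 TPM. The ranges of these 3 genes did not touch (166 to 184, 78.2 to 110 and 38.0 to 51.5 TPM). Next in order stood the receptor GITR (Tnfrsf18) at 30.7 ± 3.37 TPM and RANKL (Tnfsf11) at 28.0 ± 14.3 TPM. The second TNF receptor Tnfrsf1b followed at 24.6 ± 3.00 TPM, and the ranges of GITR, RANKL and Tnfrsf1b overlapped. Tnf itself was at 9.36 ± 1.67 TPM. Most ligands were scarce, and 5 members (Tnfsf4, Cd40lg, Tnfsf18, Fasl and Tnfrsf13c) had too few counts to be tested.

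**Figure D1:**
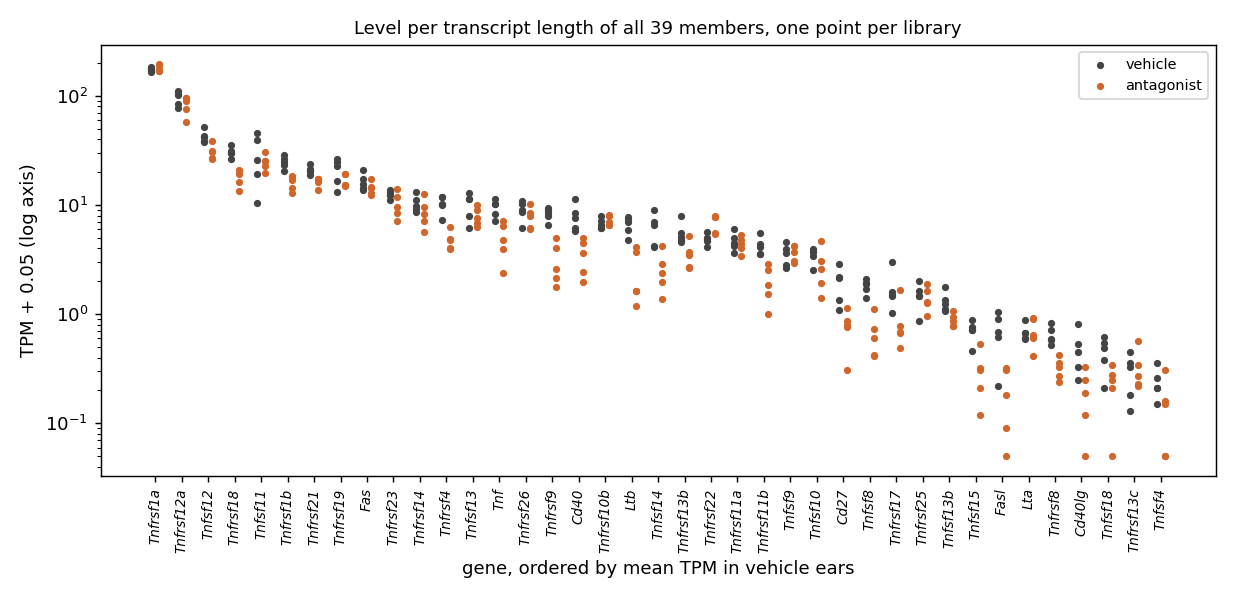
Each point is a library and each column a gene, with TPM plus 0.05 on a log axis and genes ordered by their mean in vehicle ears. Tnfrsf1a stands highest in both groups, and the lowest columns belong mostly to ligands.

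Antagonist ears had less RNA of TNF, of several lymphotoxin-related ligands and of the 6 receptors grouped here as costimulatory (4-1BB, OX40, CD30, GITR, CD27 and CD40), while the most abundant receptor, Tnfrsf1a, did not pass the test. Among the 34 members with enough counts to test, 16 were lower, 1 was higher and 17 missed an adjusted p of 0.05 (edgeR's quasi-likelihood test, adjusted over all 15174 genes). That is 47.1% of the tested members lower, beside 17.4% of all tested genes, and 2.94% higher, beside 16.7%. Among ligands 6 of 12 tested fell. Among receptors 10 of 22 fell and 1 rose. The median log2 fold change (antagonist minus vehicle) was -0.41 over the tested members and -0.000181 over all tested genes. At least a 2-fold fall was called for 10 members, and for 3.93% of all genes. Judged by CPM, in 12 members all 5 antagonist libraries lay below all 5 vehicle libraries, as in 10.8% of all genes. In 1 member all lay above, as in 10.0%. A q-value under 0.05 was given to 18 members in the authors' deposited table, 17 lower and 1 higher. They were these 17 and Fasl, which had too few counts to be tested here.

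The calls were also computed with tissue scores in the model. With the mean log2 level of cartilage markers as a covariate, 0 members and 0 genes of the table were called by edgeR (9 of the 17 members and 1733 genes had an unadjusted p under 0.05), and the 17 members kept their signs. Over these 17 the fold change with the covariate was a median of 0.807 of that without it on the log2 scale, and the SE was larger by a median factor of 1.81. With the leukocyte markers as a covariate 0 members and 0 genes were called as well (0 of the 17 members and 379 genes had an unadjusted p under 0.05), and 12 of the 17 turned sign, with SE larger by a median factor of 3.51. Neither score overlapped between groups. The cartilage score was 4.67 to 5.62 in vehicle and 2.57 to 4.54 in antagonist libraries, and the leukocyte score 4.35 to 4.61 and 3.09 to 3.61, so treatment and score cannot be told apart.

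**Figure D2:**
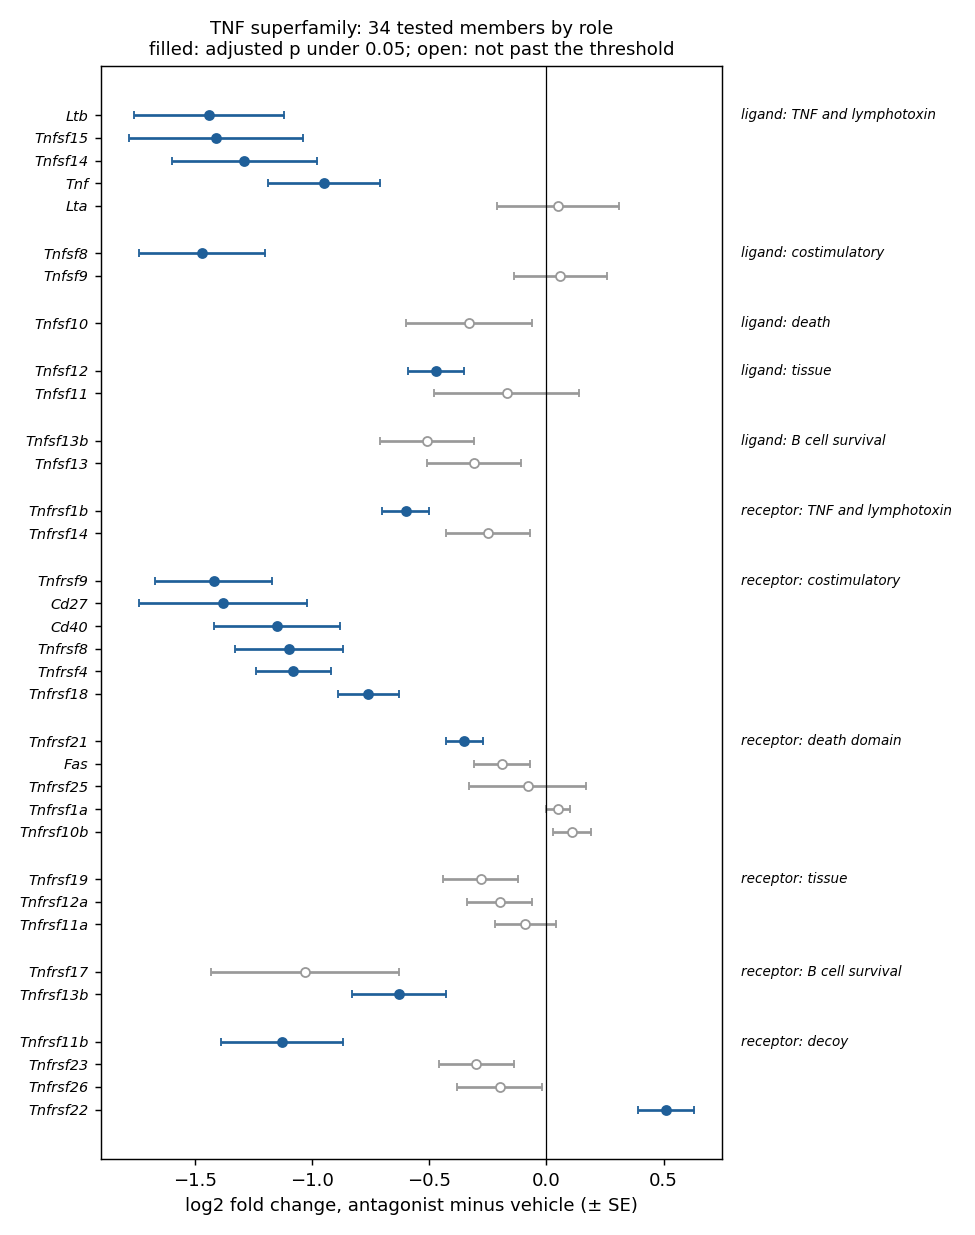
Points give the log2 fold change of each of the 34 tested members and bars its SE, in groups by side and role. Filled points passed an adjusted p of 0.05 and open points did not. The 6 costimulatory receptors are all filled and left of 0, and Tnfrsf22 is the filled point on the right.

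Tnf, the cytokine that gives the family its name, was measured in vehicle replicates 3, 9, 10, 11 and 12 at 10.1, 9.37, 7.11, 7.60 and 10.8 CPM. In antagonist replicates 4, 6, 7, 8 and 10 it stood at 4.27, 2.35, 3.92, 6.14 and 6.50 CPM. Every antagonist library was below every vehicle library. This was 1.94 times lower (log2 fold change -0.95 ± 0.24, SE; edgeR adjusted p = 0.0121). Lymphotoxin beta (Ltb), which with lymphotoxin alpha forms a membrane ligand that organises lymphoid tissue, was at 4.47, 4.61, 4.90, 2.81 and 3.72 CPM in the vehicle replicates and at 2.16, 0.749, 1.06, 2.58 and 0.985 CPM in the antagonist replicates, in the same order. Its groups did not overlap, and it was 2.71 times lower (log2 fold change -1.44 ± 0.32, edgeR adjusted p = 0.00679). Its partner Lta was scarce in both groups, at 0.501 ± 0.0742 and 0.519 ± 0.161 CPM (SD, n = 5), and did not pass (edgeR adjusted p = 0.893).

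LIGHT (Tnfsf14), a T cell ligand that binds HVEM and the lymphotoxin beta receptor, stood at 10.1, 7.28, 7.56, 4.31 and 4.51 CPM in the vehicle replicates and at 2.91, 2.20, 1.56, 4.61 and 2.51 CPM in the antagonist replicates. Antagonist replicate 8 lay above vehicle replicates 11 and 12, so the groups overlapped. Tnfsf14 was 2.44 times lower (log2 fold change -1.29 ± 0.31, edgeR adjusted p = 0.00924). TL1A (Tnfsf15), the ligand of the death receptor DR3, fell from 2.25 ± 0.568 to 0.837 ± 0.488 CPM (SD, n = 5; log2 fold change -1.41 ± 0.37, edgeR adjusted p = 0.0137), with antagonist replicate 4 above vehicle replicate 12. Their receptors were not called. HVEM (Tnfrsf14) had a log2 fold change of -0.25 ± 0.18 and DR3 (Tnfrsf25) one of -0.08 ± 0.25, and neither passed. The lymphotoxin beta receptor gene Ltbr, which the rule for members does not take in, was at 105 ± 6.84 and 103 ± 5.01 CPM (SD, n = 5). It did not pass either (log2 fold change -0.03 ± 0.06, edgeR adjusted p = 0.733).

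TNF has 2 receptors with different roles, TNFR1 (Tnfrsf1a), which carries a death domain and is made by most cells, and TNFR2 (Tnfrsf1b), which binds TRAF2 and is known from leukocytes and endothelium. Tnfrsf1a was at 217, 223, 228, 218 and 224 CPM in the vehicle replicates and at 228, 224, 229, 227 and 242 CPM in the antagonist replicates. These groups overlapped, and the log2 fold change was 0.05 ± 0.05 (SE; edgeR adjusted p = 0.405). Tnfrsf1b was at 74.3, 79.4, 71.8, 72.8 and 60.0 CPM in the vehicle replicates and at 46.8, 39, 44.2, 53.3 and 52.8 CPM in the antagonist replicates. Every antagonist value was below every vehicle value (log2 fold change -0.60 ± 0.10, edgeR adjusted p = 0.00198).

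**Figure D3:**
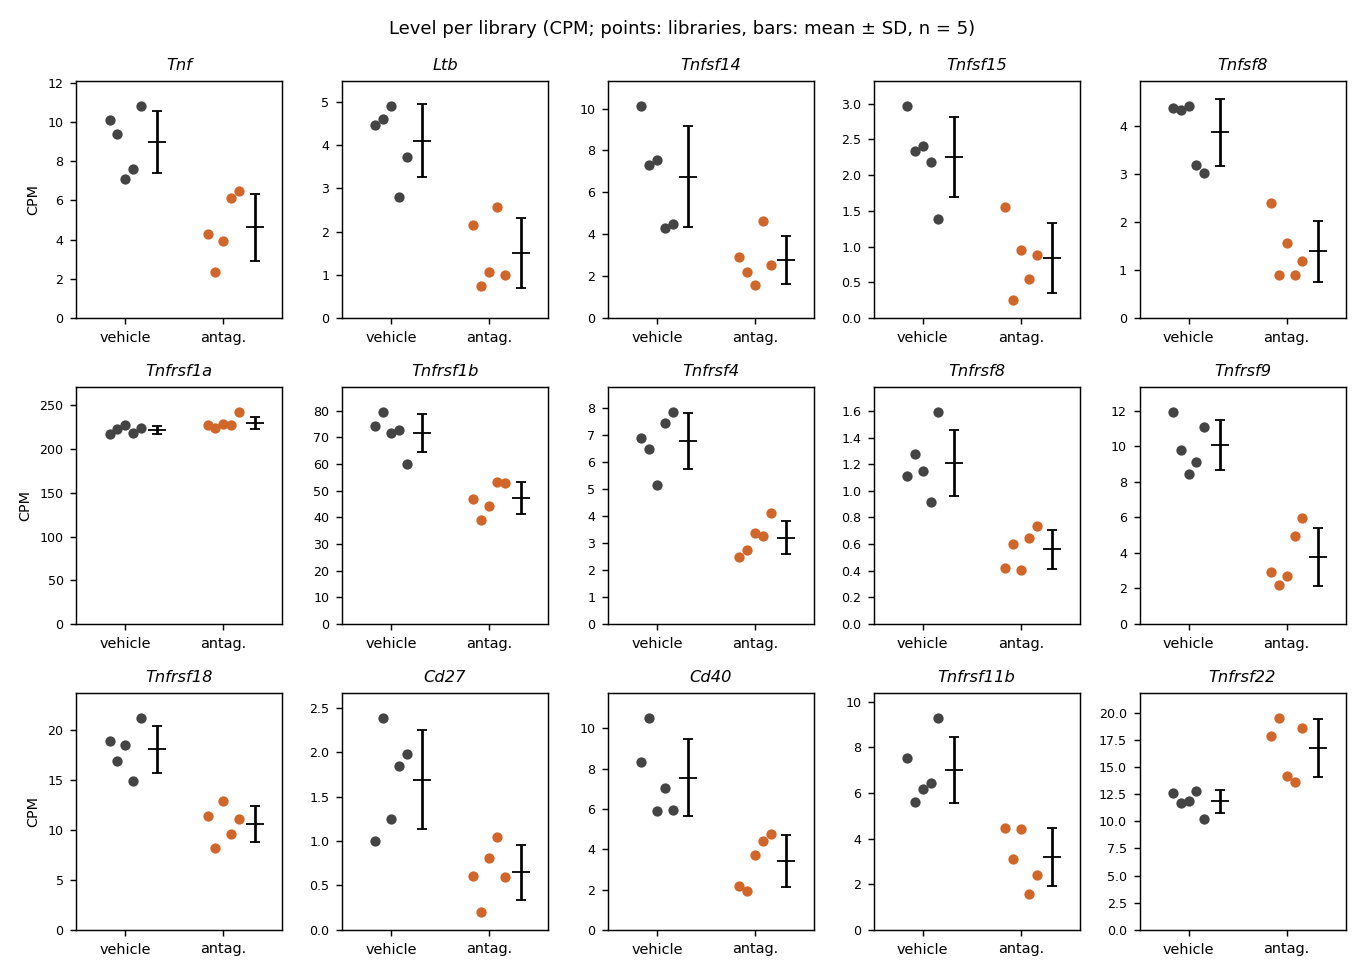
Points are libraries and bars the mean ± SD of 5 libraries per group, in CPM on linear axes that start at 0. The panels show Tnfrsf1a at about the same height in both groups, Tnfrsf22 higher in antagonist ears and the other 13 members lower.

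The 6 receptors grouped as costimulatory all fell, beside 17.4% of all tested genes, with log2 fold changes from -1.42 to -0.76. They are best known from activated T cells (4-1BB, OX40, CD30, GITR), from T cells at several stages (CD27) and from antigen-presenting cells (CD40). HVEM and DR3, which also costimulate T cells, were grouped by their ligands and death domain and did not pass. 4-1BB (Tnfrsf9) was at 11.9, 9.80, 8.46, 9.10 and 11.1 CPM in the vehicle replicates and at 2.91, 2.20, 2.72, 4.95 and 5.96 CPM in the antagonist replicates. All antagonist values were below all vehicle values, a fall of 2.69 times (log2 fold change -1.42 ± 0.25, edgeR adjusted p = 0.00251). OX40 (Tnfrsf4), a receptor that sustains T helper 2 responses, was at 6.88, 6.47, 5.15, 7.45 and 7.83 CPM against 2.49, 2.75, 3.37, 3.27 and 4.09 CPM. It was 2.12 times lower without overlap (log2 fold change -1.08 ± 0.16, edgeR adjusted p = 0.00139). Tnfrsf4 overlaps Sdf4 on the same strand in the table's coordinates. Sdf4 was at 187 ± 5.21 and 174 ± 5.79 CPM (SD, n = 5) and did not pass.

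CD40 (Cd40), through which T cells license dendritic cells and B cells, was at 8.34, 10.5, 5.91, 7.06 and 5.95 CPM in the vehicle replicates and at 2.16, 1.95, 3.72, 4.41 and 4.78 CPM in the antagonist replicates. The groups did not overlap, and the fall was 2.22 times (log2 fold change -1.15 ± 0.27, edgeR adjusted p = 0.00823). GITR (Tnfrsf18), abundant on regulatory T cells, fell from 18.1 ± 2.37 to 10.7 ± 1.81 CPM (SD, n = 5; log2 fold change -0.76 ± 0.13, edgeR adjusted p = 0.00243). CD30 (Tnfrsf8), a marker of activated lymphocytes, fell from 1.21 ± 0.248 to 0.561 ± 0.145 CPM (log2 fold change -1.10 ± 0.23, edgeR adjusted p = 0.00579). CD27 fell from 1.69 ± 0.557 to 0.649 ± 0.310 CPM (log2 fold change -1.38 ± 0.36, edgeR adjusted p = 0.0139), and its groups touched, with antagonist replicate 8 at 1.04 CPM above vehicle replicate 3 at 1.00 CPM.

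Their ligands were mostly too scarce to test. The CD30 ligand (Tnfsf8) fell from 3.86 ± 0.693 to 1.38 ± 0.625 CPM (SD, n = 5; edgeR adjusted p = 0.00294). Its log2 fold change, -1.47 ± 0.27, was the most negative among the tested members. The 4-1BB ligand (Tnfsf9), at 2.47 ± 0.601 and 2.57 ± 0.487 CPM, did not pass (log2 fold change 0.06 ± 0.20, edgeR adjusted p = 0.835). The OX40 ligand (Tnfsf4) was at 0.301, 0.143, 0.1, 0.145 and 0.198 CPM in the vehicle replicates and at 0.0938, 0.0998, 0, 0.248 and 0 CPM in the antagonist replicates, so no difference was detectable at this depth. The CD40 ligand (Cd40lg) had 3 to 11 counts in vehicle and 0 to 4 in antagonist libraries. The GITR ligand (Tnfsf18) had 4 to 14 and 0 to 7 counts.

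Markers of several leukocytes were lower as well. Of 5 tested T cell markers 4 fell, and their summed level was 47.8 to 86.5 CPM in vehicle and 12.6 to 26.9 CPM in antagonist ears. Dendritic cell markers fell in 4 of 6 and summed to 61.1 to 73.1 CPM against 21.6 to 33.7 CPM. Neutrophil markers fell in 3 of 3, from 118 to 203 CPM down to 44.2 to 77.6 CPM. Macrophage markers fell in 2 of 5, and their sums overlapped, at 1196 to 2207 and 1065 to 1612 CPM. Mast cell markers fell in 1 of 4, and their sums overlapped too, at 658 to 1118 and 484 to 820 CPM. Beside these counts, 17.4% of all tested genes fell. No marker of these lists was at 0 in all libraries. The part of cell numbers in the falls of the family's members was not tested.

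Of 5 death-domain receptors 1 fell, beside 17.4% of all tested genes. The one that fell, DR6 (Tnfrsf21), a receptor known from neurons and T cells, went from 44.9 ± 2.95 to 35.2 ± 3.37 CPM (SD, n = 5; log2 fold change -0.35 ± 0.08, edgeR adjusted p = 0.00605), and every antagonist library was below every vehicle library. FAS, which triggers apoptosis of activated lymphocytes, was at 13.9 ± 1.99 and 12.2 ± 1.55 CPM and did not pass (edgeR adjusted p = 0.240). The FAS ligand (Fasl), made by cytotoxic cells, had 4 to 23 counts in vehicle and 0 to 6 in antagonist libraries and was removed by the filter. Tested without that filter it was lower (log2 fold change -2.14 ± 0.612, SE; edgeR adjusted p = 0.0238). Its groups overlapped, with antagonist replicates 8 and 10 at 6 counts and vehicle replicate 10 at 4. In the same fit the other filtered members, Cd40lg, Tnfsf18, Tnfsf4 and Tnfrsf13c, did not pass (edgeR adjusted p = 0.0679, 0.14, 0.344 and 0.72).

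TRAIL (Tnfsf10), a death ligand induced by interferons, was at 9.96 ± 1.34 and 7.91 ± 3.62 CPM (SD, n = 5), and its antagonist values spread from 4.14 to 13.3 CPM. Its death receptor Tnfrsf10b, at 12.6 ± 0.818 and 13.6 ± 0.859 CPM, did not pass either (edgeR adjusted p = 0.266). The single riser of the family, Tnfrsf22, is a mouse decoy receptor for TRAIL, and its values per library are given because it was the riser. It was at 12.6, 11.7, 11.9, 12.8 and 10.2 CPM in the vehicle replicates and at 17.9, 19.5, 14.2, 13.6 and 18.6 CPM in the antagonist replicates. All antagonist values exceeded all vehicle values (log2 fold change 0.51 ± 0.12, edgeR adjusted p = 0.00834). The neighbouring decoy Tnfrsf23 had a log2 fold change of -0.30 ± 0.16 and Tnfrsf26, a related receptor of the same cluster, one of -0.20 ± 0.18, and neither passed. Tnfrsf22 and Tnfrsf23 are similar genes whose positions overlap in the table, so reads may have been shared between them.

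Osteoprotegerin (Tnfrsf11b), a secreted decoy that binds RANKL, fell. It was at 7.54, 5.61, 6.16, 6.44 and 9.27 CPM in the vehicle replicates and at 4.45, 3.10, 4.43, 1.58 and 2.41 CPM in the antagonist replicates. The groups did not overlap, and the level was 2.19 times lower (log2 fold change -1.13 ± 0.26, edgeR adjusted p = 0.00812). RANKL itself (Tnfsf11), which keratinocytes and other cells make, spread from 13.7 to 56.8 CPM in vehicle ears and from 26.8 to 38.0 CPM in antagonist ears and did not pass (edgeR adjusted p = 0.696). Its signalling receptor RANK (Tnfrsf11a) was at 14.2 ± 2.25 and 13.4 ± 1.76 CPM (SD, n = 5; edgeR adjusted p = 0.618). Osteoprotegerin is known from fibroblasts, bone and cartilage cells. Fibroblast markers fell in 4 of 5 tested genes, with a summed level of 8401 to 14525 CPM in vehicle and 3160 to 5497 CPM in antagonist ears. Cartilage markers fell in 4 of 6, at 384 to 682 and 218 to 409 CPM. Acan, at 263 ± 56.9 and 238 ± 58.7 CPM (SD, n = 5), made up much of these sums. Acan and Sox9 did not pass. Matn3, which fell, had 13 to 63 counts in vehicle and 0 to 6 in antagonist libraries, so the filter kept it through the vehicle group. Among all tested genes 17.4% fell. The part of fibroblasts or cartilage in the fall of Tnfrsf11b was not tested.

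TWEAK (Tnfsf12), a ligand of tissue injury responses, was at 52.6, 36.1, 43.7, 40.1 and 37.7 CPM in the vehicle replicates and at 35.5, 27.8, 32.3, 31.1 and 25.4 CPM in the antagonist replicates. The highest antagonist value lay just under the lowest vehicle value, and the log2 fold change was -0.47 ± 0.12 (SE; edgeR adjusted p = 0.0117). In TPM the groups overlapped, with antagonist replicate 4 at 38.2 and vehicle replicate 12 at 38.0. Tnfsf12 overlaps Tnfsf13 and the combined gene Tnfsfm13 in the table's positions, and reads of these may not have been told apart. Its receptor FN14 (Tnfrsf12a) was at 47.6, 55.0, 63.7, 40.9 and 55.5 CPM against 49.6, 50.9, 44.3, 32 and 52.2 CPM. These groups overlapped broadly, and the gene did not pass (log2 fold change -0.20 ± 0.14, edgeR adjusted p = 0.307). TROY (Tnfrsf19), a receptor known from hair follicles and the nervous system, was at 50.2 ± 12.6 and 41.3 ± 4.28 CPM (SD, n = 5) and did not pass (edgeR adjusted p = 0.191).

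In the branch that keeps B and plasma cells alive, 1 of 4 tested members fell, beside 17.4% of all tested genes. TACI (Tnfrsf13b), which binds BAFF and APRIL, went from 9.34 ± 2.47 to 6.02 ± 1.5 CPM (SD, n = 5; log2 fold change -0.63 ± 0.20, edgeR adjusted p = 0.0326). This call was lost without any one of vehicle replicates 3, 9 and 10 and antagonist replicates 6, 7, 8 and 10, with adjusted p from 0.0508 to 0.0810 by edgeR. Tnfrsf13b overlaps Usp22 on the opposite strand, which rose by 0.21 on the log2 scale (edgeR adjusted p = 0.0434). BCMA (Tnfrsf17), the plasma cell receptor, had a log2 fold change of -1.03 ± 0.40 and did not pass (edgeR adjusted p = 0.0641). The ligands BAFF (Tnfsf13b), with -0.51 ± 0.20, and APRIL (Tnfsf13), with -0.31 ± 0.20, did not pass. The BAFF receptor (Tnfrsf13c) had 2 to 9 counts in vehicle and 4 to 12 in antagonist libraries. B cell markers were scarce in these ears, with a summed level of 2.52 to 4.31 CPM in vehicle and 1.65 to 2.62 CPM in antagonist libraries, and 1 of the 5 could be tested. That marker, Cd79b, a chain of the B cell receptor complex, fell from 1.83 ± 0.449 to 0.868 ± 0.269 CPM (SD, n = 5; log2 fold change -1.07 ± 0.25, edgeR adjusted p = 0.00855), and its part in the value of Tnfrsf13b was not tested. Cd79a, another marker of this list, went the other way, with 2 to 5 counts in vehicle and 6 to 16 in antagonist libraries. Its groups did not overlap, and it had too few counts to be tested. The B cell surface gene Ms4a1 had 0 to 3 counts per library in both groups.

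Ligands and their receptors were also listed as pairs. The list used here holds 23 pairs among the members, decoys included, and may not hold every known pair. Ltbr, the receptor of Ltb and LIGHT, is not a member, so its pairs are not in the list. Both genes were tested in 18 pairs. OX40, CD40 and GITR fell, but their pairs drop out because their ligands had too few counts. Some genes stand in more than 1 pair, so the pairs are not independent. Apart from pairing, 6 of 12 tested ligands and 10 of 22 tested receptors fell, beside 17.4% of all tested genes. No expected number of joint falls was computed. Both fell in 2 pairs, Tnf with Tnfrsf1b and Tnfsf8 with Tnfrsf8. The ligand alone fell in 4 pairs and the receptor alone in 5. In 1 pair, Tnfsf10 with its decoy Tnfrsf22, the receptor rose and the ligand did not pass, and neither gene passed in 6. Whether a ligand's change differed from its receptor's was tested only for TWEAK with FN14 and for the OX40 ligand with OX40. These were compared as ratios within each library, and neither ratio passed. A further ratio set the 2 TNF receptors against each other.

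Ratios of 2 members within a library do not depend on the scaling between libraries. The log2 ratio of Tnfrsf1b to Tnfrsf1a, from TPM with 0.1 added, was -2.84 ± 0.16 in vehicle and -3.49 ± 0.16 in antagonist ears (SD, n = 5), a difference of -0.65. The 5 antagonist ratios lay between -3.72 and -3.29 and the vehicle ratios between -3.10 and -2.69, without overlap. The exact two-sided permutation p was 0.00794, the smallest that 252 assignments allow, and 0.0238 when adjusted over the 3 ratios computed. The ratio of FN14 to its ligand TWEAK was 1.16 ± 0.35 and 1.42 ± 0.39 (exact permutation p = 0.325, adjusted 0.405). The ratio of OX40 to its ligand was 5.17 ± 0.34 and 4.79 ± 0.94 (exact permutation p = 0.405, adjusted 0.405), and its difference of -0.38 turned to 0.76 with a smaller pseudocount of 0.01, with the ligand at 0 in 2 libraries.

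**Figure D4:**
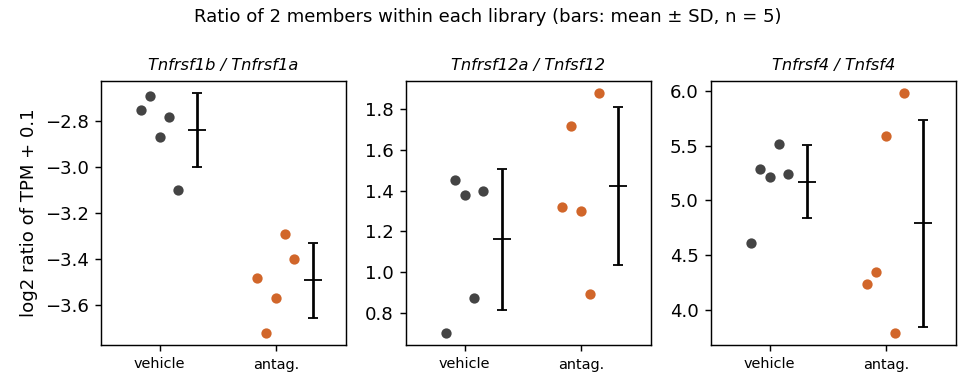
Points are the log2 ratio of TPM of 2 members in each library and bars the mean ± SD of 5 libraries per group. The Tnfrsf1b to Tnfrsf1a ratios separate the groups, from -3.10 to -2.69 and from -3.72 to -3.29, and the other ratios overlap.

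Among the genes that act with or downstream of the receptors, most did not pass the test. Of 46 tested genes of adaptors, ubiquitin enzymes, kinases, caspases, NF-kappa B subunits and shedding proteases, 12 fell, 4 rose and 30 did not pass, beside 17.4% lower and 16.7% higher among all genes. The adaptor Traf1, itself known as an NF-kappa B target, fell from 14.3 ± 1.34 to 8.70 ± 0.673 CPM (SD, n = 5; log2 fold change -0.72 ± 0.09, edgeR adjusted p = 0.000832), and Traf3, which restrains the non-canonical branch, from 37.4 ± 0.525 to 30.0 ± 3.89 CPM (edgeR adjusted p = 0.0123). Of 9 ubiquitin enzymes and brakes 2 fell, A20 (Tnfaip3), which restrains TNF signalling (log2 fold change -0.80 ± 0.16, edgeR adjusted p = 0.00447), and the ligase cIAP2 (Birc3), with -0.39 ± 0.09.

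The counts of this paragraph stand beside 17.4% of all tested genes lower and 16.7% higher. Of 6 NF-kappa B genes 3 fell. They were the non-canonical subunits Relb and Nfkb2, with log2 fold changes of -0.54 ± 0.09 and -0.45 ± 0.09 (SE; edgeR adjusted p = 0.00217 and 0.00508), and Nfkb1, with -0.31 ± 0.07. Of 5 cell death genes 2 fell, among them the initiator Casp8, by 0.47 ± 0.10 on the log2 scale. Of 11 kinase genes 1 fell, Ripk1, the death-domain kinase of the TNFR1 complex (-0.27 ± 0.06), and 2 rose, Tab3 (0.28 ± 0.08), a partner of the kinase TAK1, and Ikbkg (0.21 ± 0.07), the regulatory subunit of the IKK complex, which was picked out after its value was seen. Of 6 shedding genes 2 fell and 1 rose, and the sheddase gene Adam17, also picked out after its value was seen, was the second that fell (-0.25 ± 0.05). Sppl2a, an intramembrane protease that trims the TNF stub, stood at -0.41 ± 0.08, and the riser Rhbdf1, a partner of that sheddase, at 0.32 ± 0.07. Among 7 relatives whose names do not begin with Tnfsf or Tnfrsf, 6 were tested and 1 passed. It was Edar, the ectodysplasin receptor of hair follicles, from 0.816 ± 0.237 to 1.57 ± 0.320 CPM (SD, n = 5; log2 fold change 0.94 ± 0.24, edgeR adjusted p = 0.0131). Its relative Eda2r, at 0.18 on the log2 scale, did not pass (edgeR adjusted p = 0.350). Edaradd, the adaptor that binds Edar and was picked out after its value was seen, rose by 0.43 ± 0.14 (edgeR adjusted p = 0.0386).

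Many members lie within 150000 bases of another, and such neighbours were called alike in some places and not in others. Positions are those of the table, on GRCm38. On chromosome 17, Ltb (35194507 to 35196305) and Tnf (35199367 to 35202007) fell, while the next gene Lta (35203165 to 35205578) did not pass. On chromosome 4, OX40 (Tnfrsf4, 156010944 to 156016613) and GITR (Tnfrsf18, 156023248 to 156031648) both fell, and so did Tnfrsf1b (145212368 to 145246870) and CD30 (Tnfrsf8, 145267132 to 145315164). TL1A (Tnfsf15, 63724600 to 63745059) and the CD30 ligand (Tnfsf8, 63831202 to 63861508) on the same chromosome fell as well. On chromosome 6, CD27 (125232620 to 125237136) fell and Tnfrsf1a (125349723 to 125362483), 112587 bases away, did not pass. On chromosome 11, Tnfsf12 fell and Tnfsf13, which overlaps it, did not pass. Elsewhere on chromosome 17, Tnfsf14 fell and Tnfsf9, 81716 bases away, did not pass. On chromosome 7, Tnfrsf22 (143628070 to 143670614) rose between Tnfrsf26 and Tnfrsf23, neither of which passed.

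Antagonist libraries differed among themselves in these genes. Of the 16 members that fell, antagonist replicate 6 was the lowest of its group in 9 and the highest in 0. In 5 of the 16 antagonist replicate 4 was the highest of its group, and in 5 replicate 10 was. In the vehicle group, replicate 12 was the lowest in 5 members and also the highest in 5.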

How the data were processed

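RNA-seq of left ear skin was analysed in 5 vehicle and 5 antagonist samples. The authors deposited, per the file headers, expected counts (estimated counts that need not be whole), TPM, and DESeq2 log2 fold changes and q-values. Per the submitters' processing notes HISAT was used. For its version, the counter and the build: not given in the sources used here. The table's 1 empty line was dropped. All 39 members overlapped their RefSeq gene on GRCm38.p6, 32 with the same start and end. The protocol names no step that marks the strand.

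Counts were rounded, filtered with edgeR's filterByExpr (15174 genes kept), scaled by TMM (factors 0.972 to 1.04) and compared with edgeR 4.0.16 (R 4.3.3, quasi-likelihood F test), with p-values adjusted by Benjamini-Hochberg over all tested genes at 0.05. The code was tested on simulated data. SE is the fold change over the square root of F. Ratios were compared by exact permutation. Every member past the threshold is named. Values per library are given for Tnf, its receptors, the genes of each ratio and the 6 called members with the highest mean CPM among those with a log2 fold change of at least 1 in size, and of pathway genes the 2 with the smallest p per class are named, except 1 that is not reported here. The members and lists were chosen with earlier results of these data known. Alternatives covered scaling, filters, DESeq2 1.42.0, limma 3.58.1 (voom, and trend on TPM with pseudocounts of 1 and 0.1), covariates and each library left out. Precision is limited by 5 samples per group. Counts cover counting error only.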

Additional observations from a re-analysis of the deposited data

Results flagged for a closer look

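In 74 groups of 5 libraries examined, 4 held a library far from the others, about as many as the 1 in 20 that chance gives. All were in the vehicle group. Lta was at 0.629 CPM (13 counts) in vehicle replicate 11 and between 0.450 and 0.495 CPM (9 to 10 counts) in the others, so few counts set it apart. Tnfsf10 was at 7.66 CPM in vehicle replicate 10 and between 10.1 and 11 CPM in the others. Tnfrsf13b was at 13.6 CPM in vehicle replicate 3 and between 7.53 and 9.01 CPM in the others, and Tnfrsf17 at 1.41 CPM in the same library and between 0.446 and 0.701 CPM in the others. Without vehicle replicate 3 Tnfrsf13b was at -0.45 on the log2 scale (edgeR adjusted p = 0.0810).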

How the results depend on the processing

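Leaving out each library in turn gave 15 to 18 members called lower and 1 called higher. Of the 17 called members, 15 kept their call in all 19 alternatives without a covariate. Tnfrsf13b kept it in 12, and Tnfrsf8 in all 18 that tested it. With the cartilage score as covariate 0 members lower, 0 higher and 0 genes in all were called, and 1733 genes had an unadjusted p under 0.05. With the leukocyte score these counts were 0, 0, 0 and 379. With it 19 members turned sign: Tnf 1.02, Ltb 0.87, Tnfsf14 0.26, Tnfsf15 1.66, Tnfsf12 0.20, Tnfrsf1b 0.05, Tnfrsf9 0.07, Tnfrsf21 0.07, Cd27 1.22, Cd40 0.61, Tnfrsf13b 0.86, Tnfrsf22 -0.05, Tnfsf9 -1.23, Tnfsf10 1.17, Tnfsf13 0.19, Fas 0.22, Tnfrsf25 0.21, Tnfrsf14 0.77 and Tnfrsf17 0.92 (log2 fold changes). With the cartilage score Tnfsf9 turned to -0.48 and Tnfrsf25 to 0.25. Some members that had not passed were called lower in single alternatives without a covariate, Tnfrsf17 in 4 of 18, Tnfsf13b in 2 of 19, and Tnfrsf19 and Tnfrsf23 in 1 of 19 each. Others turned sign near 0 elsewhere. Lta was at -0.07 by limma-voom, -0.01 by limma on TPM (pseudocount 0.1), and -0.05 and -0.07 without antagonist replicates 4 and 8. Tnfsf9 was at -0.01 and -1.38e-05 without vehicle replicates 3 and 12. Tnfsf11 was at 0.04 and 0.02 without vehicle replicates 9 and 10, in a range from -0.37, and Tnfrsf25 at 0.06 and 0.04 without vehicle replicate 9 and antagonist replicate 10, in a range from -0.22. The log2 ratio of Tnfrsf1b to Tnfrsf1a ranged from -0.72 to -0.60 and that of Tnfrsf12a to Tnfsf12 from 0.14 to 0.39 without single libraries, and that of Tnfrsf4 to Tnfsf4 from -0.68 to -0.13, turning to 0.76 with a pseudocount of 0.01. The causes were not tested. No paired analysis was possible because the groups share a single replicate number, 10. Depth limits the 5 members under the count filter.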
